A study of Mus musculus with 10 samples.

Results

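The visual cycle genes described here are 8 of the 47729 genes in the count table: Stra6, Lrat, Rpe65, Rlbp1, Rdh5, Rdh11, Rdh10 and Rgr. They were listed by name for their roles in taking up, converting and carrying retinoids in the retinal pigment epithelium (RPE), the cell layer behind the photoreceptors. The list was made with earlier results of these data known. Every one of the genes was found in the table and had enough counts to be tested. RNA was sequenced from the RPE of both eyes of 5 mice, all wild-type CD1 at P40, with 1 library from each eye. One eye of each mouse had received AAV-Best1-GFP only (GFP control), and the other eye AAV-Best1-GFP together with AAV-Best1-Nrf2 (Nrf2). AAV stands for adeno-associated virus, a gene delivery vector, and Nrf2, encoded by Nfe2l2, is a transcription factor that activates genes against oxidative stress. All 10 eyes therefore carried GFP, both transgenes were driven by a stretch of the human Best1 promoter, the delivered Nrf2 was the human sequence, and each Nrf2 eye received an additional vector for which the control eye had no counterpart. By the methods, the Nrf2 vector used the AAV8 capsid and the GFP vector a 7M8 capsid. The question asked here was how large the change of each visual cycle gene was in the Nrf2 eye relative to the control eye of the same mouse.

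The visual cycle rebuilds the light-sensitive chromophore 11-cis-retinal after light has turned it into all-trans-retinal. Retinol taken up by the RPE, or returned from photoreceptors, is esterified by LRAT, isomerized to 11-cis-retinol by RPE65, held by the carrier CRALBP (the product of Rlbp1) and oxidized to 11-cis-retinal by retinol dehydrogenases. Rgr encodes an opsin of the RPE that binds all-trans-retinal and takes part in a light-dependent route to the cis form.

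Libraries held 12298404 to 27310638 counts, and the lowest count of any visual cycle gene in any library was 493 (Rdh11). Levels are given in CPM, the count of a gene relative to the total of its library after TMM scaling between libraries. Nfe2l2 rose from 89.5 ± 14.7 to 352 ± 57.1 CPM (SD, n = 5), for a log2 fold change of 1.97 with an SE of 0.11 (edgeR adjusted p = 0.000299, where an SE is always that of the 5 within-mouse log2 ratios), and counts from the mouse gene and from the delivered human sequence cannot be told apart. Nqo1, a known target of Nrf2, rose with a log2 ratio of 1.77 (SE 0.14, adjusted p = 0.000818). The labelled cell type was checked against a list of 22 RPE markers, all of which were measured, and their summed level was 11616 to 18498 CPM in control eyes and 6852 to 11950 CPM in Nrf2 eyes. Best1, the RPE gene whose promoter drove both transgenes, was nearly absent, at 0.770 ± 0.462 CPM in control and 1.13 ± 0.312 CPM in Nrf2 eyes. Rod transcripts differed widely between libraries: the 10 rod markers summed to 19417 CPM in the control eye and 7453 CPM in the Nrf2 eye of mouse 2 and to 2956 CPM in the control eye of mouse 4, against 37.7 to 443 CPM in the other 7 libraries.

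All 8 visual cycle genes fell in the Nrf2 eyes (edgeR quasi-likelihood test with the mouse as a block, adjusted p under 0.05 over all genes tested), whereas 2.73% of the 16362 genes tested were called lower, 3.6% higher and 6.33% in either direction. Each of the 8 was lower in the Nrf2 eye of all 5 mice, a pattern shown by 10.9% of the genes tested, and for 7 of them every Nrf2 eye lay below every control eye, as it did for 2.25% of the genes tested. The median log2 fold change of the 8 was -1.78, beside -0.01 over all genes tested. Since the 8 genes were listed with earlier results of these data known, these shares are a background and give no test of the list. Sizes were far from equal: the fitted level in the Nrf2 eyes ran from 13.6% of control for Rpe65 to 58.3% for Rdh11. In bulk RNA, fewer RPE cells in a sample and less RNA per cell cannot be told apart.

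**Figure D1:**
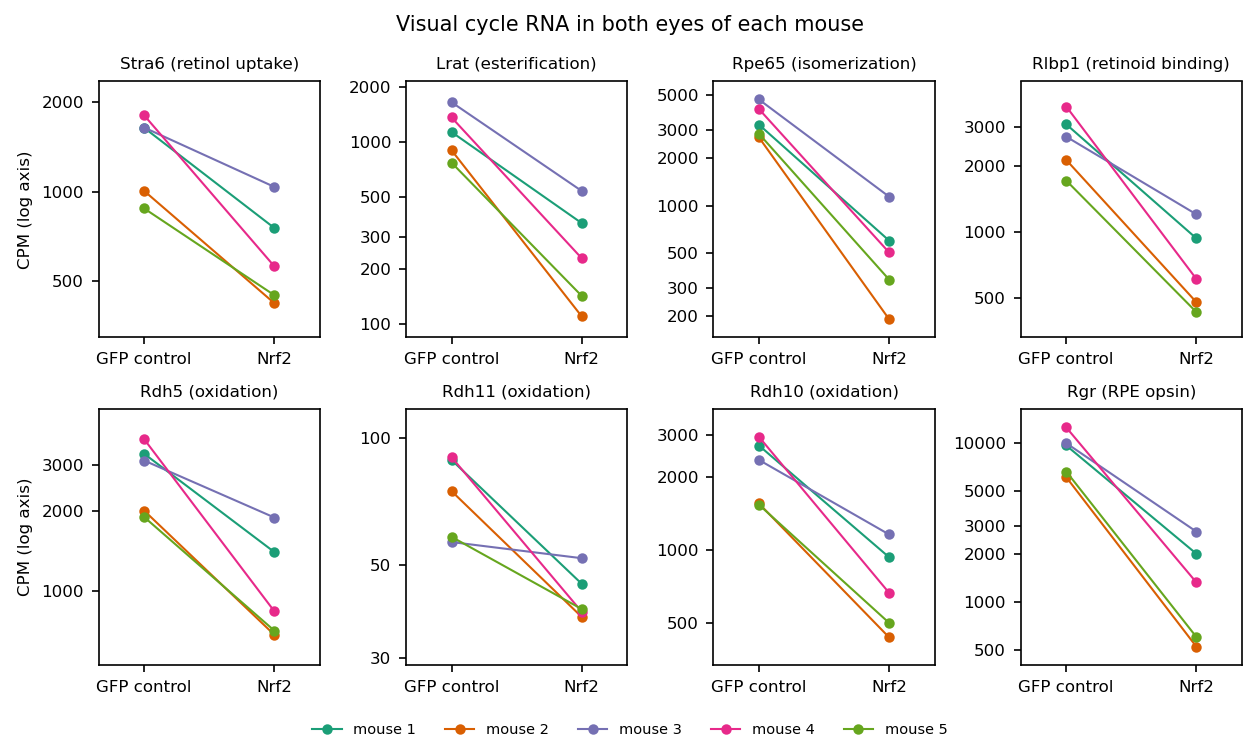
Levels of the 8 visual cycle genes in CPM (log axis, with its own range in each panel) in the GFP control eye and the Nrf2 eye, with a line joining the eyes of each of the 5 mice. Every line goes down. The Rdh11 line of mouse 3 is the flattest, from 56.6 to 51.8 CPM.

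Promoter sequence is shown for the genes with the largest falls (Rpe65 and Rgr), for Rlbp1 and for Rdh11, which had the smallest fall. Only genes with a motif match in a window are printed. Windows of 300 bases around RefSeq transcript starts (250 before and 50 after, build GRCm38.p6) were given for 7 of the 8 genes, with 11 windows in all, and Rdh10 had none. The stretches below run 5′ to 3′ on the strand of the gene and end at the RefSeq start or, where that comes earlier, before the first exonic base of GENCODE M21, and capitals mark matches, on either strand, to the motifs searched. They lie at chr3:159598931-159599174 (plus strand), chr14:37049015-37049264 (minus), chr7:79387049-79387277 (minus) and chr12:79190962-79191211 (minus). The last is the second of 2 Rdh11 windows and lies within the annotated gene, since the first window holds no base upstream of an exon.
Rpe65: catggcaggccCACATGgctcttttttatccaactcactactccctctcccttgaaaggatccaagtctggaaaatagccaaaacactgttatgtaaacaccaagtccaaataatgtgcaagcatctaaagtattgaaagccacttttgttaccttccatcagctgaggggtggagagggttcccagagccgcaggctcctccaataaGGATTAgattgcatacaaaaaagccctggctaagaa
Rgr: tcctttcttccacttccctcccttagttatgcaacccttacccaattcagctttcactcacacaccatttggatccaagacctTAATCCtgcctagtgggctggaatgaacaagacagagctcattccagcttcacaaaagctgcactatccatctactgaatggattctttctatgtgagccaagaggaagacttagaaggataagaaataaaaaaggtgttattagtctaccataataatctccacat
Rlbp1: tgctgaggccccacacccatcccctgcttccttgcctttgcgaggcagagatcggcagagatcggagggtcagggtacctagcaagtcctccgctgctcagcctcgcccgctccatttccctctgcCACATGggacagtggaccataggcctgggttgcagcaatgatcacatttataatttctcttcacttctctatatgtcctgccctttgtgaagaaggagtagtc
Rdh11: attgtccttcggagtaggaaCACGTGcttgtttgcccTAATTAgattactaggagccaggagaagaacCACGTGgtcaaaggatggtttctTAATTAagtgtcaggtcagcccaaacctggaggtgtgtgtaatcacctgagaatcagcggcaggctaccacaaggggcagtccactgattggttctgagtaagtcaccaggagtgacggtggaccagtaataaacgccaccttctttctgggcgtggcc
The OTX and CRX homeodomain motif TAATCC was matched in the windows of Rpe65 (positions -42 to -37 with the start base as 0, on the opposite strand) and Rgr (-167 to -162), and in 7.06% of all 32851 promoter windows. The M-box core CATGTG bound by MITF was matched in Rpe65 (-239 to -234), Rlbp1 (-124 to -119) and Rgr, where it covers the start base and runs past the printed stretch, each time on the opposite strand, and in 14.2% of all windows. Rdh11 held the E-box CACGTG, present in 7.15% of windows, and the LHX motif TAATTA, present in 5.29%, each at 2 positions. The core of the antioxidant response element to which Nrf2 binds, TGACNNNGC, was in none of the 11 windows and in 12.4% of all windows, and the SOX motif AACAAT was likewise in none of the 11 and in 10.7% of all. No match overlapped another. The windows of Lrat (log2 fold change -2.26), Stra6 and Rdh5 held no match to any motif searched. A match of letters describes these windows and is not evidence of binding.

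The gene of retinol entry had the second smallest fall of the 8 genes. Stra6 (ENSMUSG00000032327, chr9:58063788-58153996, plus strand) encodes the membrane receptor that takes up retinol from retinol-binding protein. In mice 1 to 5 it was at 1638, 1005, 1641, 1803 and 878 CPM in the control eyes and at 754, 422, 1037, 561 and 449 CPM in the Nrf2 eyes. Every Nrf2 eye was below its own control eye, but the groups overlapped, because the Nrf2 eye of mouse 3 was above the control eyes of mice 2 and 5. The mean went from 1393 ± 420.0 to 645 ± 256 CPM (SD, n = 5), for a log2 fold change of -1.14 with an SE of 0.17 (adjusted p = 0.00838), and 45.5% of control remained. Stra6 did not pass when the pairing of eyes was left out of the model (-1.11, adjusted p = 0.0628).

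Esterification, the next step, fell further than retinol entry in each of the 5 mice. Lrat (ENSMUSG00000028003, chr3:82892579-82903973, minus strand) encodes lecithin retinol acyltransferase, which turns retinol into the retinyl esters on which RPE65 acts. Its control eyes held 1137, 902, 1657, 1367 and 772 CPM in mice 1 to 5, and its Nrf2 eyes 359, 110.4, 539, 230.2 and 143 CPM. The highest Nrf2 eye, that of mouse 3, was below the lowest control eye, that of mouse 5. From 1167 ± 356 to 276 ± 176 CPM, the log2 fold change was -2.26 with an SE of 0.27 (adjusted p = 0.00248), and 20.8% of control remained.

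The isomerase and the opsin Rgr had the largest mean falls of the 8 genes, and which of them was first depended on the mice included. Rpe65 (ENSMUSG00000028174, chr3:159599175-159625321, plus strand) encodes the enzyme that converts all-trans-retinyl esters into 11-cis-retinol, and its promoter stretch is printed above. It was at 3265, 2709.9, 4712, 4100.1 and 2858 CPM in the control eyes of mice 1 to 5 and at 601, 191, 1141, 505 and 340.1 CPM in their Nrf2 eyes. The groups were far apart, and mouse 3 was the highest in both. The mean was 3529 ± 854 CPM in control and 556 ± 363 CPM in Nrf2 eyes, and the log2 fold change was -2.88 with an SE of 0.30 (adjusted p = 0.0017). Within mice, between 7.04% (mouse 2) and 24.2% (mouse 3) of the control level remained. Among the 16362 genes tested, ordered from the largest fall, Rpe65 stood at place 12 and Rgr at place 13.

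The carrier of 11-cis retinoids fell less than the isomerase in each of the 5 mice. Rlbp1 (ENSMUSG00000039194, chr7:79374870-79387048, minus strand) encodes CRALBP, which binds 11-cis-retinol and 11-cis-retinal. Control eyes of mice 1 to 5 were at 3091, 2127, 2715, 3725 and 1713 CPM, and Nrf2 eyes at 934, 478, 1202, 609.8 and 431 CPM. All Nrf2 eyes lay below all control eyes, and the closest were the Nrf2 eye of mouse 3 and the control eye of mouse 5. The log2 fold change was -1.93 with an SE of 0.24 (adjusted p = 0.00317), from 2674 ± 791 to 731 ± 328 CPM.

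Of the 3 retinol dehydrogenases, Rdh11 fell least in every mouse. Rdh5 (ENSMUSG00000025350, chr10:128913593-128922888, minus strand) encodes the main 11-cis-retinol dehydrogenase of the RPE. Its control eyes were at 3303, 2009.9, 3114, 3749 and 1901 CPM in mice 1 to 5, and its Nrf2 eyes at 1400.1, 679.9, 1894, 835 and 705 CPM. The groups were barely separate, with 1894 CPM in the Nrf2 eye of mouse 3 against 1901 CPM in the control eye of mouse 5. Rdh5 went from 2815 ± 819 to 1103 ± 529.8 CPM, for a log2 fold change of -1.42 with an SE of 0.24 (adjusted p = 0.00987). It shares 720 exonic bases on the same strand with Bloc1s1, a subunit gene of a lysosome-related organelle complex, whose total count over the 10 libraries was 18222 against 371955 for Rdh5. Bloc1s1 was at 111 ± 30.2 CPM in control and 79.4 ± 14.3 CPM in Nrf2 eyes (log2 fold change -0.46, SE 0.14, adjusted p = 0.0932), and how reads in the shared bases were assigned is not given in the sources used here.

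Rdh10 (ENSMUSG00000025921, chr1:16105774-16133734, plus strand) encodes a dehydrogenase that oxidizes retinol and serves retinoic acid synthesis in development as well as the RPE. It was at 2708, 1559, 2361, 2942 and 1541 CPM in the control eyes and at 935, 436, 1161, 666 and 500.1 CPM in the Nrf2 eyes of mice 1 to 5. No Nrf2 eye reached the lowest control eye, and the log2 fold change was -1.63 with an SE of 0.18 (adjusted p = 0.00295). Rdh11 (ENSMUSG00000066441, chr12:79174337-79192293, minus strand) encodes a dehydrogenase found in photoreceptors as well as the RPE. It was by far the least abundant of the 8, with control eyes at 88.7, 74.8, 56.6, 90 and 58.2 CPM and Nrf2 eyes at 45, 37.5, 51.8, 38.6 and 39.2 CPM. Its Nrf2 eyes also lay below every control eye, but in mouse 3 the difference was only from 56.6 to 51.8 CPM. The mean went from 73.6 ± 16 to 42.4 ± 5.98 CPM, and its log2 fold change of -0.78 with an SE of 0.19 (adjusted p = 0.0355) had the largest adjusted p of the 8. It did not pass without mouse 1, 2, 4 or 5 (-0.69, -0.69, -0.64 and -0.83, edgeR adjusted p = 0.0892, 0.133, 0.111 and 0.075), nor with the rod markers as a covariate (-0.65, adjusted p = 0.164).

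The RPE opsin was the other gene with a fall of the size seen for Rpe65. Rgr (ENSMUSG00000021804, chr14:37034909-37048964, minus strand) was at 9626, 6095, 9951, 12490.0 and 6609.9 CPM in the control eyes of mice 1 to 5 and at 2016, 528, 2777, 1334 and 607 CPM in the Nrf2 eyes. The groups did not come near each other. From 8954 ± 2628 to 1452 ± 956 CPM, the log2 fold change was -2.87 with an SE of 0.34 (adjusted p = 0.00291), and 13.7% of control remained, almost the same share as for Rpe65.

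The size of the fall was then compared between genes within each mouse, as the difference of their log2 ratios of Nrf2 over control. Of the 28 pairs of genes, 25 had one member falling further than the other in all 5 mice. With 5 mice the exact paired permutation test (two-sided, sign flips) cannot go below p = 0.063, so these 25 pairs all had p = 0.063 (0.07 after adjustment over the 28 pairs), and no pair could pass 0.05. Rpe65 fell further than Lrat in every mouse, by a difference of -0.62 ± 0.18 on the log2 scale (SD, n = 5), further than Rlbp1 by -0.95 ± 0.47 and further than Stra6 by -1.74 ± 0.57. Rlbp1 in turn fell further than Rdh5 by -0.51 ± 0.06, the pair with the smallest spread between mice. Stra6 and Rdh11, at the lower end, still differed in one direction, with Stra6 ahead by -0.36 ± 0.16.

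In 3 pairs the order changed from mouse to mouse. Rpe65 and Rgr differed by -0.02 ± 0.29, with a range over mice of -0.30 to 0.37 (exact p = 0.938). Lrat fell further than Rlbp1 in 3 of 5 mice, by -0.33 ± 0.39 on average (range -0.88 to 0.06, exact p = 0.25, adjusted 0.259). Rdh10 fell further than Rdh5 in 4 of 5 mice, by -0.21 ± 0.14 (range -0.31 to 0.02, exact p = 0.125, adjusted 0.135). That these pairs missed the threshold does not show that their genes fell alike.

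**Figure D2:**
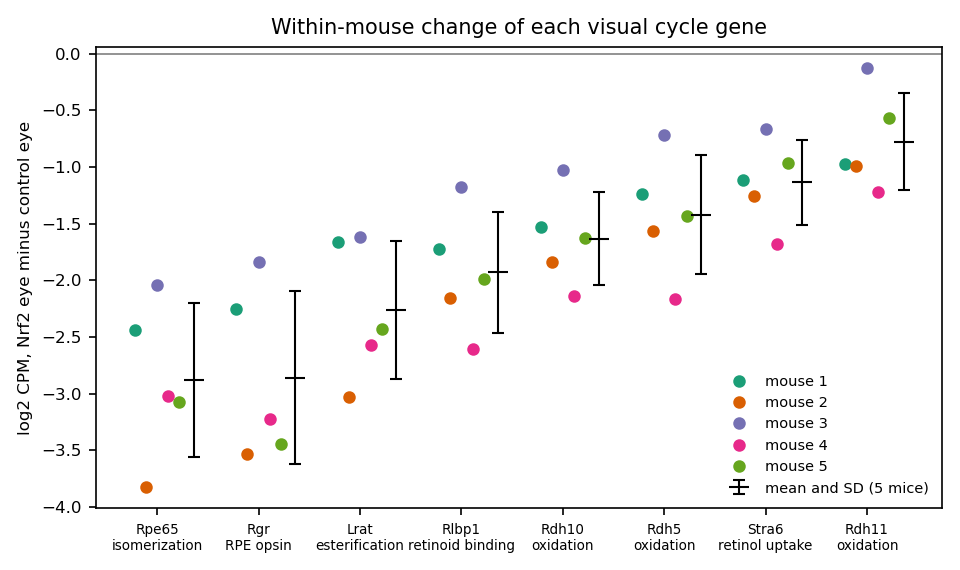
Log2 CPM in the Nrf2 eye minus that in the control eye of the same mouse, for the 8 genes ordered by their mean. Points are mice, and the bars give mean and SD over the 5 mice. All points are below 0, from -3.83 (Rpe65, mouse 2) to -0.13 (Rdh11, mouse 3), and mouse 3 is the highest point of every gene.

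The mouse with the smallest fall was the same for every gene. Mouse 3 held this place for all 8, with -2.05 for Rpe65, -1.84 for Rgr, -1.62 for Lrat and -0.66 for Stra6. The largest fall was in mouse 2 for 3 genes (Rpe65 at -3.83, Rgr at -3.53 and Lrat at -3.03) and in mouse 4 for the other 5, among them Rlbp1 at -2.61 and Rdh5 at -2.17. Rpe65 had the largest fall of the 8 in mice 1, 2 and 3, and Rgr in mice 4 and 5. At the other end, Rdh11 had the smallest fall and Stra6 the next smallest in all 5 mice. The averages over the 8 genes were -1.62, -2.27, -1.15, -2.33 and -1.94 in mice 1 to 5, beside log2 ratios of Nfe2l2 of 1.78, 2.11, 2.19, 2.16 and 1.62. The mean log2 ratio of the RPE markers was -0.89, -0.66, -0.05, -0.07 and -0.28, so it was also highest in mouse 3. All values of a mouse come from the same pair of libraries. The share of all genes with their smallest fall in mouse 3 was not counted. The mice with the widest gaps in rod markers between their eyes were mouse 4, whose mean log2 ratio of rod markers was -5.26, and mouse 2, at -1.29, and the part of rod RNA in the order of the mice was not tested.

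The make-up of visual cycle RNA differed between the eyes. Levels of different genes were compared per length, as RPKM, that is CPM divided by exon length in kilobases. Exon length was that of all annotated exons of a gene merged (4786 bases for Rgr and 1934 for Rpe65). The lengths of the transcripts present were not measured, and the order of genes and their shares depend on this choice. In the control eyes Rgr (1871 ± 549 RPKM) and Rpe65 (1825 ± 442 RPKM) led, and these 2 did not differ beyond their spread, since Rgr was the higher of them in 2 of 5 eyes. They were followed by Rdh5 (1002 ± 292), Rlbp1 (905 ± 268), Rdh10 (534 ± 156), Stra6 (239 ± 72.1), Lrat (218 ± 66.6) and Rdh11 (21.3 ± 4.63 RPKM), in which order Stra6 and Lrat did not differ beyond their spread. In the Nrf2 eyes Rdh5 (393 ± 189 RPKM) was above Rgr (303 ± 199.7) in all 5 eyes, neither Rgr and Rpe65 (287 ± 188) nor Rpe65 and Rlbp1 (247 ± 111) differed beyond their spread, and Rdh10 (178 ± 73.2), Stra6 (111 ± 43.8), Lrat (51.7 ± 32.8) and Rdh11 (12.3 ± 1.73 RPKM) followed.

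Of the summed RPKM of the 8 genes, Rpe65 made up 27.9% ± 3.56 in control and 17.3% ± 3.53 in Nrf2 eyes, and Rgr 28.1% ± 1.57 and 17.9% ± 4.01, both lower in all 5 mice with no overlap of the groups. The share of Rdh5 was 15.1% ± 0.996 in control and 25.5% ± 2.87 in Nrf2 eyes, higher in all 5 mice without overlap. Rdh10 (8.04% ± 0.705 and 11.7% ± 1.21), Stra6 (3.58% ± 0.294 and 7.40% ± 1.09) and Rdh11 (0.335% ± 0.0859 and 0.910% ± 0.346) also had higher shares in all 5 Nrf2 eyes and no overlap. Rlbp1 had a higher share in 5 of 5 mice, with overlap (13.6% ± 1.51 and 16.2% ± 2.05). For each of these 7 genes the exact paired permutation test gave p = 0.063, the smallest that 5 pairs allow. The share of Lrat did not move in one direction (3.29% ± 0.456 and 3.10% ± 0.422, lower in 3 of 5 mice, exact p = 0.562). A higher share is relative only, since the RNA of every one of the 8 genes was lower: together they took 1.59% to 3.00% of the counts of a control library and 0.299% to 0.928% of an Nrf2 library.

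**Figure D3:**
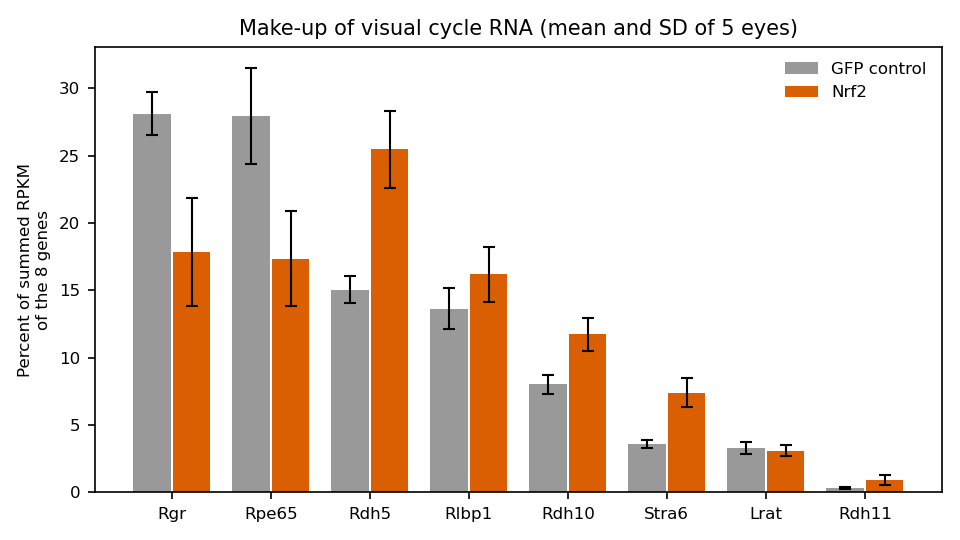
Share of each gene in the summed RPKM of the 8 visual cycle genes, in percent, as mean and SD of the 5 GFP control eyes (grey) and the 5 Nrf2 eyes (orange). Rpe65 and Rgr go from 27.9% and 28.1% to 17.3% and 17.9%, while Rdh5 goes from 15.1% to 25.5%.

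Of the genes of retinoid handling outside the list, most were not called. Of 23 further retinoid genes 18 were tested (Rdh8, Awat2, Rdh7, Rdh9 and Dhrs9 had too few counts), 4 fell and 1 rose, with a median log2 fold change of -0.26. Among those that fell was Rrh (-0.82, SE 0.18, adjusted p = 0.0254), the RPE opsin peropsin. Dhrs3 (-0.57, SE 0.13, adjusted p = 0.0429), which reduces all-trans-retinal, and Retsat (-0.47, SE 0.06, adjusted p = 0.0224), which saturates retinol, fell as well. These 3 were lower in 5 of 5 mice with overlapping groups, and none of the 3 passed without the pairing in the model (adjusted p = 0.0883 to 0.158), with the rod covariate (0.0899 to 0.0938) or when libraries were scaled to the RPE markers (Rrh -0.43, Dhrs3 -0.18 and Retsat -0.08). Dhrs3 did not pass without any one of the 5 mice (adjusted p = 0.0669 to 0.173), Retsat without mouse 1, 2, 3 or 4 (0.0843 to 0.13), or Rrh without mouse 1, 2, 4 or 5 (0.0556 to 0.104). Rbp4, the secreted retinol-binding protein whose receptor is STRA6, rose from 3.13 ± 1.32 to 12 ± 2.57 CPM (1.99, SE 0.34, adjusted p = 0.0117) without overlap. Ttr, which encodes transthyretin, the partner of RBP4 in blood and one of the most abundant RPE transcripts, was at 11643 ± 4852 and 11909.7 ± 6028 CPM (0.00, SE 0.31, adjusted p = 0.998). Degs1 (-0.42, adjusted p = 0.139), Adipor1 (-0.20, adjusted p = 0.569), Abca4 (-0.31, adjusted p = 0.516) and Rbp3 (-0.78, SE 0.65, adjusted p = 0.496), each over 100 CPM on average, did not pass in edgeR, and of these Degs1 passed with DESeq2 (-0.41, adjusted p = 0.0446). Rbp3 ranged from 15.6 to 1392 CPM in control eyes. Its log2 fold change was -0.21 without mouse 4 and -0.08 with the rod covariate. That of Abca4 was -0.10 and -0.08.

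Markers of the RPE outside the visual cycle were used to see whether the whole cell type moved alike. Of the 22 markers 8 fell, 0 rose (0 at an unadjusted p under 0.05 in edgeR, and 0 with DESeq2), and the median log2 fold change was -0.16. The falls were in Enpp2 (-2.33, SE 0.21, adjusted p = 0.00141), which encodes the secreted lysophospholipase autotaxin, Ermn (-1.70, adjusted p = 0.00333), the amino acid transporter gene Slc6a20a (-1.68, adjusted p = 0.00237), the potassium channel gene Kcnj13 (-1.35, adjusted p = 0.00395), the lactate transporter gene Slc16a8 (-1.18, adjusted p = 0.0163), Mertk (-0.98, adjusted p = 0.0129), the receptor for taking up outer segments, Clic6 (-0.72, adjusted p = 0.0308) and the cadherin gene Cdh3 (-0.62, adjusted p = 0.0117). Without mouse 2, the mouse with the most rod RNA, 4 of the markers were called. Enpp2, Ermn, Slc6a20a and Kcnj13 passed under all 12 alternatives. Clic6 passed neither without any one of the 5 mice (adjusted p = 0.059 to 0.134), nor without the pairing (0.117), nor with the rod covariate (0.112). Cdh3 did not pass without mouse 2 (0.055), Mertk without mouse 2 (0.0503) or 4 (0.0508), or Slc16a8 without mouse 2 (0.0659) or 5 (0.0507). These 3 did not pass without the pairing either (Cdh3 0.205, Mertk 0.0675 and Slc16a8 0.058), nor did Cdh3 (0.0629) and Mertk (0.075) with the rod covariate. On the scale of the RPE markers Clic6 (-0.33), Cdh3 (-0.23), Mertk (-0.59) and Slc16a8 (-0.78) were not called. The 7 pigment genes of the list (Tyr, Tyrp1, Dct, Pmel, Mlana, Slc45a2 and Oca2), grouped after their values were seen, held 0 calls (edgeR, 0 at an unadjusted p under 0.05, and 0 with DESeq2), and Best1 was not called (0.70, SE 0.41, adjusted p = 0.492). The within-mouse log2 ratios of the pigment genes had SDs from 0.51 (Oca2) to 1.87 (Pmel, from -2.46 to 2.68). With this spread, the lack of calls does not show that the pigment genes were unchanged.

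As a description of the 2 lists as they were made up, the mean log2 ratio of the 8 genes minus that of the 22 markers was -0.73, -1.61, -1.10, -2.26 and -1.66 in mice 1 to 5. On average the visual cycle genes were at -1.86 ± 0.49 and the markers at -0.39 ± 0.37, a difference of -1.47 ± 0.59 (SD, n = 5). The lists ran into each other, since Enpp2 (-2.33) was further down than 6 of the 8 visual cycle genes, and Kcnj13 (-1.35) and Slc16a8 (-1.18) were further down than Stra6 and Rdh11. Scaling the libraries to the RPE markers moved the median of all genes to 0.38 on the log2 scale, and split the calls into 1247 higher and 115 lower in place of 589 higher and 447 lower. On that scale 6 of the 8 visual cycle genes were called lower, and Stra6 (-0.74, adjusted p = 0.0823) and Rdh11 (-0.38, adjusted p = 0.248) were not.

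**Figure D4:**
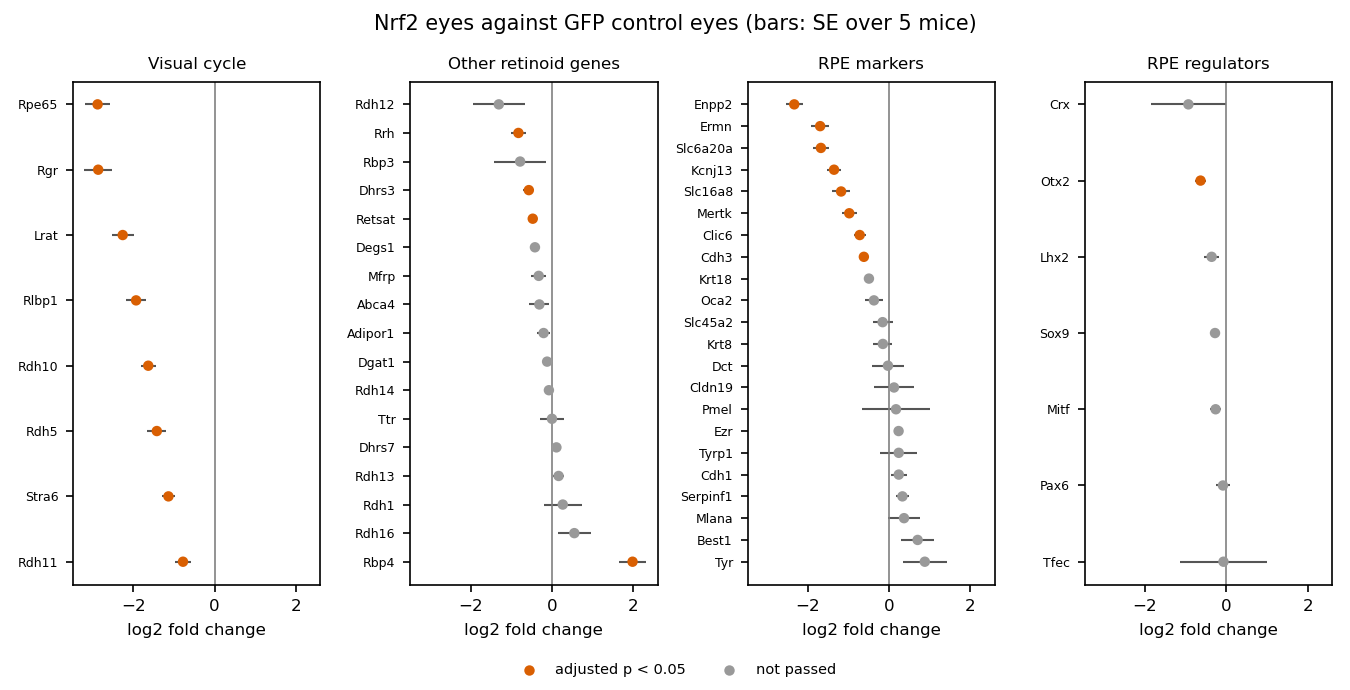
Log2 fold change of Nrf2 over GFP control eyes for the 8 visual cycle genes, other retinoid genes tested, the 22 RPE markers and the 7 RPE regulators, with bars of 1 SE of the within-mouse log2 ratios over 5 mice. Orange points passed an adjusted p of 0.05, and grey points did not. All 8 visual cycle points are orange and below 0, and Rbp4 is the one orange point above 0.

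Transcription factors of the RPE were tested as a list of 7. Otx2, a homeodomain factor that RPE identity depends on, fell from 350.1 ± 85.9 to 226 ± 59.4 CPM (-0.63, SE 0.13, adjusted p = 0.0287) and was lower in 5 of 5 mice with overlapping groups. Its call did not hold without any one of mice 1 to 5 (adjusted p = 0.0645, 0.124, 0.0645, 0.0591 and 0.0675), without the pairing (0.137), with the rod covariate (0.0872) or on the RPE marker scale (-0.24, adjusted p = 0.45). The other 6, Sox9 (-0.28, adjusted p = 0.185), Mitf (-0.26, adjusted p = 0.317), Lhx2 (-0.36, adjusted p = 0.291), Pax6 (-0.08, adjusted p = 0.853), Crx (-0.93, adjusted p = 0.554) and Tfec (-0.07, adjusted p = 0.984), did not pass. Over the 7 regulators the median log2 fold change was -0.28.

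Transcripts of other cell types moved in the same samples. Of 11 markers of microglia and macrophages, 10 rose and Csf1r did not pass (-0.57, adjusted p = 0.301), with a median log2 fold change of 4.73. Their summed level was 165 to 285 CPM in control and 330.2 to 1678 CPM in Nrf2 eyes, with no overlap. Csf1r made up most of it in control eyes, at 139 to 249 CPM, while C1qa, for example, went from 2.22 to 7.77 CPM in control to 56.1 to 311 CPM in Nrf2 eyes. Rods (9 of 10 markers tested, median -1.09), cones (7 of 8, median -0.95) and Mueller glia (6 of 6, median 0.37) gave 0 calls in edgeR. At an unadjusted p under 0.05 there were 0 for rods, 3 for cones and 1 for Mueller glia, and DESeq2 called 0, 1 and 0 of them. Summed Mueller glia markers, a cell type that also expresses Rlbp1, were at 1188 to 1768 CPM in control and 1281 to 2329 CPM in Nrf2 eyes. Most of this sum was Dkk3, at 1089 CPM on average in control and 1371 CPM in Nrf2 eyes. Within mice the sum fell in mouse 1 (1768 to 1340 CPM) and mouse 2 (1414 to 1281 CPM) and rose in mice 3, 4 and 5. Endothelium (8 markers, median 0.32), fibroblasts (6, median 0.17), inner retina neurons (6 tested of 9, median 0.24) and muscle (6, median 0.68) gave 0 calls in edgeR, 0 at an unadjusted p under 0.05 and 0 with DESeq2, and of 4 melanocyte markers 1 fell, Sox10 (-1.74, adjusted p = 0.00291). Within mice, however, summed muscle markers went from 79.2 to 4.69 CPM in mouse 1 and from 52 to 526 CPM in mouse 5. Summed fibroblast markers went from 667 to 140 CPM in mouse 1 and from 216 to 746 CPM in mouse 4. The part of these cell types in the falls of the visual cycle genes was not tested.

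The genes whose changes were most like those of the visual cycle genes were ranked by the root mean square distance between their 5 within-mouse log2 ratios and the average of the 8, among 10220 other tested genes with a mean of at least 10 CPM. Among the 8 nearest were Tmem56 (distance 0.15), Ermn (0.20), 1700019D03Rik (0.20), Slc6a20a (0.22) and Slc24a1 (0.23). Ermn and Slc6a20a were also in the RPE marker list. Nearest to Rpe65 alone were the thyroid hormone transporter gene Slco1c1 (0.41), Trhde (0.62) and Enpp2 (0.64). Slco1c1 was at 88.8 CPM in control and 12.9 CPM in Nrf2 eyes on average, a log2 fold change of -2.88 (edgeR adjusted p = 0.000788).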

How the data were processed

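Per the labels, the retina was removed, RNA was collected from the cleaned eyecup, and its polyA fraction went through a low-input amplification kit. The authors aligned reads with STAR to mm10 with Ensembl release 91 transcripts and counted them per gene with featureCounts, and in parallel estimated counts with Salmon (version 0.8.2 in the submitters' processing notes) for DESeq2. The authors deposited unnormalized counts, whole numbers for each Ensembl gene. Which of these tables was deposited, the strand setting and any filter are not given in the sources used here. The table held 10 libraries and 0 columns of other samples. Symbols, positions and exon lengths came from GENCODE M21 on the same build, in which 47310 identifiers (99.1%) had an entry.

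The test on counts was that of edgeR 4.0.16, run in R 4.3.3 (filterByExpr, TMM, glmQLFit and glmQLFTest, mouse as a block), with Benjamini-Hochberg adjustment over all 16362 genes tested and a threshold of 0.05. Log2 CPM used a prior count of 2. Fold changes and p-values came from the fit, and SEs from the SD of the within-mouse log2 CPM differences. The eyes were paired by the animal number in the labels. As a check, deviations from the group means correlated across genes with Pearson's r of 0.19 to 0.71 within mice and -0.42 to 0.28 (median -0.08) between mice. No libraries agreed within sampling noise (smallest chi-square per degree of freedom 38.2). A count of 0 allows up to 3 counts, or 0.110 to 0.244 CPM, which reflects counting error alone because amplification copies molecules.

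The 8 genes and all lists were chosen with earlier results of these data known. Named beyond the 8 were, in each list, up to 8 called genes with the largest change and any called against most of its list, Best1, other retinoid genes over 100 CPM on average that were not called, Nfe2l2 and Nqo1, and the nearest genes by distance. A few genes that this rule names are not reported here. Regulators that were not called, genes not tested, Csf1r, C1qa, Sox10, Bloc1s1 and the pigment genes were named after their values were seen. Promoter windows came from RefSeq (GRCm38.p6). Alternatives were DESeq2 1.42.0, its size factors in edgeR, no filter, a mean of at least 50 counts, no pairing, rod markers as a covariate, scaling to the RPE markers, and leaving out each mouse.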

Additional observations from a re-analysis of the deposited data

How the results depend on the processing

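Rpe65, Rgr, Lrat, Rlbp1, Rdh10 and Rdh5 kept their direction and their call under all 12 alternatives (Rpe65 -3.03 to -2.50, Rdh5 -1.54 to -1.03), and 6 to 8 of the 8 genes were called lower. Rgr fell further than Rpe65 without mouse 1 (-2.99 and -2.96), 2 (-2.66 and -2.61) or 3 (-3.06 and -3.03). Without the replicate block, that is without pairing the eyes, 755 genes changed in place of 1036, Stra6 missed the threshold (-1.11), and the calls were 1 in place of 5 other retinoid genes, 4 in place of 8 RPE markers and 0 in place of 1 regulator. The block changed no other call of the 8 genes. Genes changed numbered 1803 with DESeq2 and 501 with the rod covariate. The rod covariate left 2 other retinoid genes, 5 RPE markers and 0 regulators, and Rdh11 at -0.65. Scaled to the RPE markers, Stra6 was at -0.74 and Rdh11 at -0.38, with 1 other retinoid gene, 5 RPE markers (1 of them higher) and 0 regulators called. DESeq2 called 8 other retinoid genes.

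Leaving out 1 mouse at a time gave 584 (without mouse 2) to 857 changed genes, 1 to 3 other retinoid genes, 4 to 8 RPE markers (4 without mouse 2, and 8 without mouse 1, of which 1 was higher) and 0 regulators in each case. Rdh11 then ran from -0.88 to -0.64, and Stra6 from -1.20 to -0.97 with its call kept. The cause of these changes was not tested. The difference between the visual cycle genes and the RPE markers ran from -1.66 to -1.28.

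The number of mice limits the tests of single values: with 5 mice an exact paired permutation test cannot go below p = 0.063. The shared exonic bases of Rdh5 and Bloc1s1 and the unstated strand setting leave a part of their counts uncertain.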
